A study of Mus musculus with 12 samples.

Results

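In this series of 12 libraries, 10 genes of the Toll-like receptor (TLR) pathway were followed. They were taken by symbol from the 43278 rows of the deposited table, and all 10 were found: the adaptor genes Myd88, Tirap, Ticam1 and Ticam2, the IL-1 receptor-associated kinase (IRAK) genes Irak1, Irak2 and Irak3, the ubiquitin ligase gene Traf6, and the IκB kinase (IKK)-related kinase genes Tbk1 and Ikbke. The libraries were made from poly(A) RNA of cultured peritoneal macrophages (PMφs), which had been drawn into the peritoneal cavity of young adult wild-type C57BL/6J mice with thioglycolate and collected by lavage. There were 4 groups of 3 libraries, which were control PMφs without treatment, PMφs loaded with 100 µg/ml human medium oxidized low-density lipoprotein (oxLDL) for 24 h, PMφs stimulated with 10 ng/ml ultrapure LPS, and PMφs given oxLDL and then LPS at the same doses. How long these cells were exposed to LPS is not stated for the libraries. The methods describe pools of cells from littermates of both sexes that were split over the groups, so a replicate stands for a pool of mice and not for 1 animal. In fits that ignore the replicate number, p-values set a difference against the spread between such pools. With the replicate number as a block, they set it against how far the difference varied from pool to pool.

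LPS binds TLR4 with its partners CD14 and MD-2, and the receptor passes the signal on through a pair of adaptor systems. At the plasma membrane TIRAP brings MyD88 to the receptor, MyD88 assembles IRAK4 with IRAK1 and IRAK2 into the Myddosome, and TRAF6 then builds ubiquitin chains that activate TAK1, NF-κB and MAP kinases. From endosomes TRAM, the product of Ticam2, links the receptor to TRIF, the product of Ticam1, which engages TBK1 and IKKε (Ikbke) to phosphorylate IRF3 and turn on type I interferon. IRAK3, also called IRAK-M, is a kinase-dead family member known in macrophages as a brake on the Myddosome. Some parts of the pathway are themselves known targets of the signal they carry.

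The promoters of 9 of the 10 genes, all but Ticam2, were searched for motifs of factors that LPS signaling is known to activate. RefSeq windows of 300 bases on GRCm38.p6, from 250 before to 50 after a transcription start, were used. The 2 printed here are the ones in which such a motif was found. Capitals mark the motif, and each sequence is the gene's own strand from 5′ to 3′.
Myd88, chr9:119340019-119340268, minus strand: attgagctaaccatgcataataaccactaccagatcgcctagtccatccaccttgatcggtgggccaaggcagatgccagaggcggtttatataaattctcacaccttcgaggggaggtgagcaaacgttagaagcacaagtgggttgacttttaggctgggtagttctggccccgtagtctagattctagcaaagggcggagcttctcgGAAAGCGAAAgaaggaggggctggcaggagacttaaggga
Ikbke, chr1:131279563-131279813, minus strand: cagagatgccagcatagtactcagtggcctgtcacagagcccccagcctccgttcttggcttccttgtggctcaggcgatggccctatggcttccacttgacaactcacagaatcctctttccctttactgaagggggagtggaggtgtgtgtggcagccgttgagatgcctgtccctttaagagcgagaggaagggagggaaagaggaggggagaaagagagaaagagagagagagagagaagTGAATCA
The Myd88 capitals match the core of the interferon-stimulated response element, GAAANNGAAA, and begin 40 bases before the start. The Ikbke capitals match the AP-1 motif TGANTCA, begin 6 bases before the start and end on the first base of the transcript. Both strands were searched. The interferon core was found in Myd88 alone among the 9 genes and in 3.44% of the 32851 RefSeq windows of mouse genes, and the AP-1 motif in Ikbke alone and in 7.81% of windows. The κB consensus of NF-κB and the full cyclic AMP response element TGACGTCA were found in 0 of the 9 genes and in 4.51% and 1.79% of windows. No motif searched contains another. These matches describe letters in 300 bases, and no binding was measured.

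Values are normalized counts, that is read counts divided by the authors by 1 factor per library and rounded. They summed to 17.2 to 17.7 M in libraries without LPS and to 22.1 to 26.4 M in libraries with LPS, and the spacing of low values implied 16.7 to 26.2 M reads per library. The 9 macrophage markers summed to 236107 to 336224, whereas the sums of B cell, T cell, neutrophil, eosinophil and mast cell markers stayed between 24 and 384, with the neutrophil marker Ly6g at 0 throughout. The sums that differed with LPS each rested mainly on 1 gene. Eosinophil sums were lower with LPS (56 to 124) than without it (182 to 384) through Siglecf, with Prg2 and Ear6 at 0 throughout. Neutrophil sums were higher (79 to 258 against 31 to 50) mainly through S100a8. Camp was higher too, with means of 3.0 in LPS and 9.0 in oxLDL+LPS libraries against 0.0 in control and oxLDL libraries. S100a9, Mpo, Elane and Ngp were at 5 or less in every library. T cell sums were higher (87 to 244 against 24 to 45) through Lck, while Cd3d, Cd3e, Cd3g and Trac were at 3 or less and Cd2 had lower means with LPS (15.33 and 5.667 in control and LPS libraries), and the part of these genes in the results was not tested. Mesothelial and fibroblast markers summed to 5429 to 32016. As a check of the labels, Tnf had 64.0 ± 3.61 (SD, n = 3) normalized counts in control and 62448 ± 24412 in LPS libraries. The pools differed by sex. The libraries of replicate number 2 held 5933 to 7751 normalized counts of the female transcript Xist and at most 2 of the Y-linked gene Ddx3y, and those of number 3 held both. In number 1, the libraries without LPS had 1 to 2 counts of Xist and 1132 to 1156 of Ddx3y, whereas those with LPS had 3812 to 6331 and 439 to 459, so that the number did not stand for the same mixture of animals in the 2 LPS states. Comparisons across LPS were therefore also fitted without number 1.

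Levels were compared between genes per kb of exon, since the exons of these genes span 2.58 to 9.02 kb in GENCODE. In control PMφs, Irak1 was the most abundant with a mean of 586 normalized counts per kb, followed by Irak2 at 494, Ticam1 at 406, Tbk1 at 402, Ikbke at 316 and Myd88 at 241. Irak3 at 143, Traf6 at 118, Tirap at 95.4 and Ticam2 at 93.5 closed the order. Ticam1 and Tbk1 overlapped between libraries, as did Tirap and Ticam2, and every other neighbouring pair of genes was separate in all 3 control libraries. With LPS the order began with Myd88 at 1554 normalized counts per kb, and Ikbke (1213), Irak2 (1172) and Tbk1 (1140) followed with overlapping values. Irak3 rose from the seventh place to the fifth, at 904 per kb, above Irak1 at 402 and Ticam1 at 389, which overlapped. The bridging adaptors Tirap, at 151, and Ticam2, at 112, were still the lowest with Traf6, at 152. The order of the adaptor and kinase genes thus differed between the groups, as the plot of levels per kb shows.

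**Figure D1:**
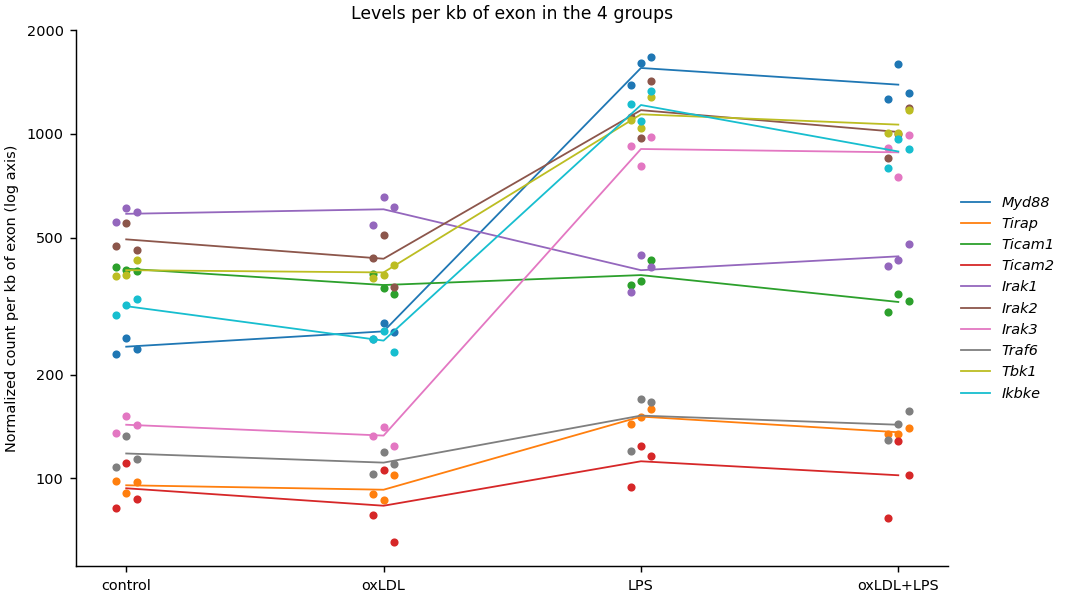
Mean level of each gene in normalized counts per kb of exon (log axis) in the 4 groups, with the 3 libraries of each group as points and lines joining the group means. Myd88 moved from 241 per kb in control PMφs to 1554 with LPS and Irak3 from 143 to 904, whereas Irak1 went from 586 to 402 and Ticam1 from 406 to 389.

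The first comparison asked how LPS changed the pathway in PMφs without lipid. Log2 fold changes are of the normalized count plus 1, and a gene was called when its Benjamini-Hochberg adjusted p from limma, over all genes tested, was under 0.1, the threshold of the study's methods. LPS changed 8 of the 10 genes, 7 upward and 1 downward, with the largest rises in Myd88 and Irak3. Of all 13023 genes tested, 61.7% were called, 31.4% higher and 30.3% lower, so the share called among the 10 is to be read against a response that took in most genes. The median log2 fold change of the 10 was 0.95 against -0.001 for all genes. The values of 7 of the 10 did not overlap between the groups, against 63.2% of genes tested. In bulk libraries, fewer cells of a type and less RNA per cell cannot be told apart.

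Of the adaptor genes, Myd88 lies on chromosome 9 (chr9:119335934-119341411, minus strand, GRCm38) and encodes the shared adaptor of most TLRs. Its normalized counts were 592, 657 and 612 in the control libraries of replicate numbers 1, 2 and 3 and 3582, 4129 and 4298 in the LPS libraries. All 3 LPS libraries stood far above all 3 control libraries. The log2 fold change was 2.69 (adjusted p = 7.0e-07, limma, with a standard error of 0.10), or 6.43-fold, and was higher than that of 95.2% of genes tested. Tirap (chr9:35184551-35200291, minus strand) encodes the bridging adaptor that brings MyD88 to TLR2 and TLR4. Its normalized counts were 484, 446 and 480 in control and 710, 745 and 784 in LPS libraries. The groups were again separate, at a log2 fold change of 0.67 (adjusted p = 6.3e-04, limma, with a standard error of 0.09). Under other filters, scalings and models the value went as low as 0.18 and the adjusted p as high as 0.098 (limma), just inside the threshold of 0.1. The adaptor genes of the TRIF arm were not called. Ticam1 (chr17:56269319-56276786, minus strand), which encodes TRIF, had 1233, 1206 and 1201 normalized counts in control and 1088, 1117 and 1291 in LPS libraries. The groups overlapped, and the log2 fold change of -0.06 had a 95% interval from -0.28 to 0.16 (adjusted p = 0.61, limma). With each library scaled to the same total, which moved the median of all genes by -0.48, Ticam1 was called lower at -0.55. Ticam2 on chromosome 18, which encodes the bridging adaptor of TRIF, had 476, 644 and 505 normalized counts in control and 548, 716 and 674 in LPS libraries. The groups overlapped, although LPS was higher in all 3 replicate numbers, and the log2 fold change was 0.26 (95% interval -0.10 to 0.61, adjusted p = 0.20, limma). With the replicate number as a block, the adjusted p was 0.056, and with the same total Ticam2 turned to -0.23. Ticam2 shares 838 exon bases, 14.5% of its exon length, with Tmed7 on the same strand, and its reads cannot be told apart there. Myd88 shares 290 exon bases with Acaa1a (1100 to 3093 normalized counts) on the opposite strand. Irak3 likewise shares 192 with Tmbim4 (906 to 2584) and Tirap 39 with Srpr (2042 to 4331). Whether reads were counted by strand is not given in the sources used here.

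**Figure D2:**
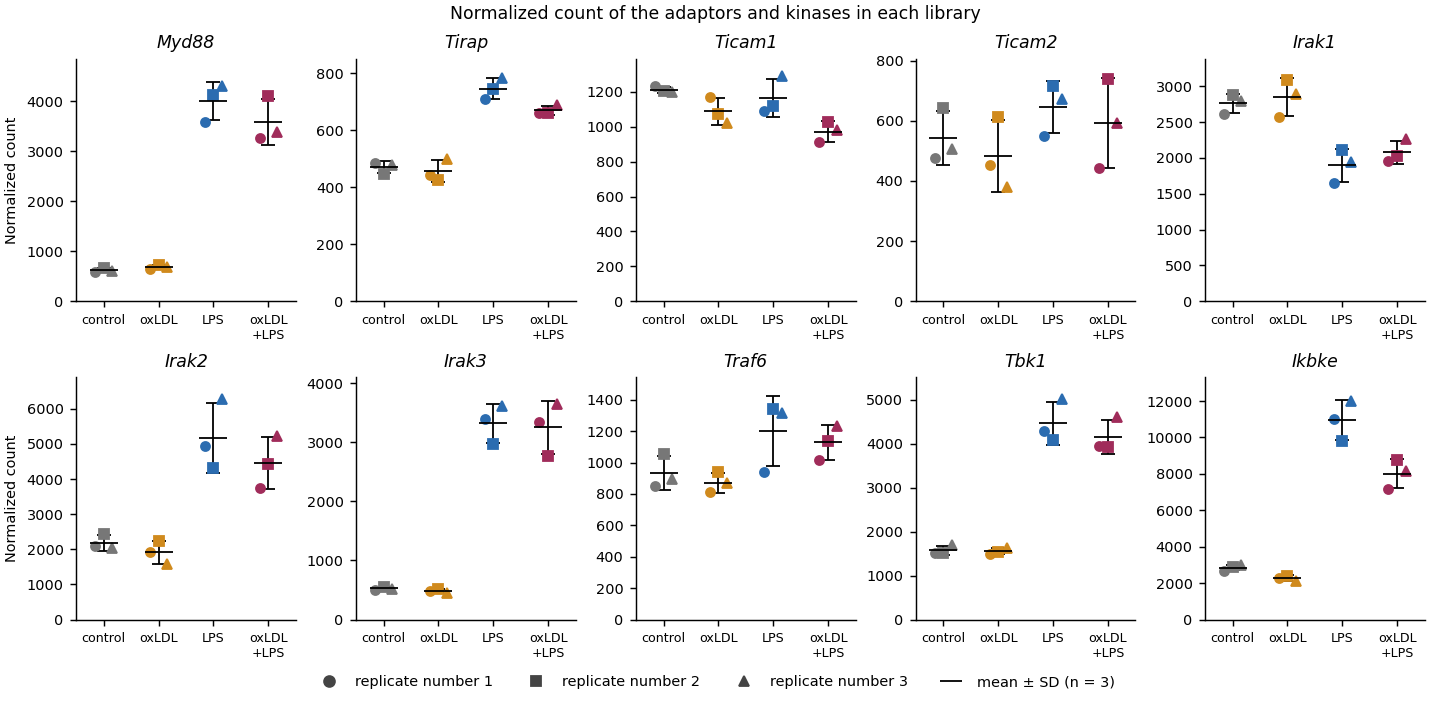
Normalized count of each of the 10 genes in each library (vertical axes from 0, 1 scale per gene), with symbols for the replicate number and bars for the mean and SD of 3 libraries. Myd88, Irak2, Irak3, Tbk1 and Ikbke lie higher in all 6 LPS-treated libraries than in all 6 others and Irak1 lies lower, whereas Ticam1 and Ticam2 overlap.

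The IRAK genes moved in both directions. Irak1 (chrX:74013914-74023918, minus strand) encodes the kinase that is recruited first after IRAK4 and is degraded once it has signaled. It had 2619, 2879 and 2796 normalized counts in control and 1643, 2104 and 1937 in LPS libraries. Every LPS library was below every control library, and Irak1 was the 1 gene of the 10 that fell, with a log2 fold change of -0.55 (adjusted p = 0.0038, limma, with a standard error of 0.11). Because Irak1 is X-linked, the mixture of animals was looked at beside it. In replicate number 2, with Xist and almost no Ddx3y in both LPS states, the difference was -0.45, in number 3 it was -0.53 and in number 1 -0.67. Irak2 (chr6:113638467-113695026, plus strand) encodes the family member that sustains late signaling to TRAF6. It had 2087, 2429 and 2027 normalized counts in control and 4934, 4306 and 6270 in LPS libraries, which were separate. Its log2 fold change was 1.23 (adjusted p = 2.9e-04, limma, with a standard error of 0.15). Irak3 (chr10:120141648-120202130, minus strand) encodes the inhibitory IRAK-M and was the lowest of the 3 IRAK genes per kb in control PMφs. It had 497, 559 and 524 normalized counts there and 3391, 2962 and 3611 with LPS. No library of one group came near the other, and the log2 fold change was 2.65 (adjusted p = 8.2e-07, limma, with a standard error of 0.10), which is 6.28-fold.

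Traf6 (chr2:101678429-101701669, plus strand), the ligase between the IRAKs and TAK1, had 850, 1052 and 896 normalized counts in control and 943, 1342 and 1317 in LPS libraries. The groups overlapped, with the LPS library of number 1 under the control library of number 2. Its log2 fold change was 0.35 (95% interval -0.01 to 0.72, adjusted p = 0.094, limma), just inside the threshold. The call was lost without a filter on low values (adjusted p = 0.145), without the variance trend (0.144) or when control library 1 or 3 or LPS library 2 or 3 was left out (0.201 to 0.243), and the direction turned with the same total (-0.13). Both IKK-related kinase genes rose. Tbk1 (chr10:121546455-121586787, minus strand), the kinase that phosphorylates IRF3, had 1511, 1523 and 1686 normalized counts in control and 4292, 4070 and 5014 in LPS libraries. The LPS libraries were all higher, with a log2 fold change of 1.498 (adjusted p = 1.7e-05, limma, with a standard error of 0.11). Ikbke (chr1:131254343-131279606, minus strand), which encodes its close relative IKKε, had 2685, 2872 and 2988 normalized counts in control and 11007, 9802 and 12009 in LPS libraries. It had the highest counts of the 10 genes in every LPS library, and its log2 fold change was 1.94 (adjusted p = 4.4e-06, limma, with a standard error of 0.11). Without replicate number 1 and with the block, log2 fold changes were 2.73 for Myd88, 0.72 for Tirap, 1.23 for Irak2, 2.59 for Irak3, 0.45 for Traf6, 1.495 for Tbk1, 1.89 for Ikbke and -0.49 for Irak1, all called, and Ticam2 was called too at 0.28, where 66.9% of genes tested were called. This fit had 2 libraries per group and 1 residual degree of freedom, so its p-values lean on the variance of other genes.

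The same comparison in oxLDL-loaded PMφs, oxLDL+LPS against oxLDL, shares no library with the first. Its libraries pair by replicate number with those of the first, so it is not an independent repeat. Again 8 of the 10 genes were called, 7 higher and 1 lower, where 54.5% of 12900 genes were called, 28.2% higher and 26.3% lower. The groups were separate for 8 of the 10, against 57.6% of genes tested, and the median log2 fold change of the 10 was 0.89 against -0.02 for all genes. Myd88, the shared adaptor, had 653, 726 and 685 normalized counts in oxLDL and 3255, 4100 and 3389 in oxLDL+LPS libraries. The rise was 2.37 on the log2 scale (adjusted p = 4.1e-06, limma, with a standard error of 0.11). Irak3, the brake, had 490, 519 and 455 normalized counts in oxLDL and 3348, 2760 and 3644 in oxLDL+LPS libraries. Its rise of 2.73 (adjusted p = 3.6e-06, limma, with a standard error of 0.12) was the largest of the 10 here, above that of 96.1% of genes tested. Ikbke had 2278, 2419 and 2092 normalized counts in oxLDL and 7161, 8742 and 8156 in oxLDL+LPS libraries. The groups were separate, at 1.82 (adjusted p = 1.1e-05, limma, with a standard error of 0.10). Tbk1 had 1495, 1525 and 1628 normalized counts against 3947, 3927 and 4603, a rise of 1.42 (adjusted p = 2.1e-05, limma, with a standard error of 0.09).

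Of the others, Irak2 had 1923, 2239 and 1588 normalized counts in oxLDL and 3757, 4420 and 5233 in oxLDL+LPS libraries. It was higher in every oxLDL+LPS library, at 1.22 (adjusted p = 7.4e-04, limma, with a standard error of 0.16). Irak1, which the first comparison also called lower, had 2566, 3091 and 2893 normalized counts in oxLDL and 1953, 2027 and 2260 in oxLDL+LPS libraries. The fall was -0.45 (adjusted p = 0.0081, limma, with a standard error of 0.10). Tirap had 443, 426 and 501 normalized counts in oxLDL and 660, 662 and 689 in oxLDL+LPS libraries. Its log2 fold change was 0.56 (adjusted p = 0.0027, limma, with a standard error of 0.10), and with the same total it was 0.17 and not called. Traf6 had 811, 937 and 868 normalized counts in oxLDL and 1015, 1135 and 1236 in oxLDL+LPS libraries. The groups were separate here, at 0.37 (adjusted p = 0.022, limma, with a standard error of 0.10), but with the same total the value was -0.02, and with the block and without number 3 the adjusted p was 0.104. Both TRIF-arm adaptors again overlapped between the groups. Ticam1 had 1173, 1071 and 1024 normalized counts against 911, 1026 and 981, at -0.16 (95% interval -0.38 to 0.05, adjusted p = 0.18, limma). Ticam2 had 452, 614 and 379 against 443, 740 and 592, at 0.29 (95% interval -0.25 to 0.84, adjusted p = 0.34, limma). With the block, the adjusted p of Ticam2 was 0.11, but it was called in the blocked fit of all 12 libraries (0.056) and in that without number 1 (0.46 on the log2 scale, adjusted p 0.015). Without number 1, 9 of the 10 were called, all but Ticam1, where 62.3% of genes tested were. That fit too had 1 residual degree of freedom. Of all called genes, 50.9% were higher with LPS in PMφs without oxLDL and 51.7% in oxLDL-loaded PMφs, whereas with the same total these shares were 23.1% and 23.4% and with quantile normalization 40.2% and 39.9%. The 5 large rises, in Myd88, Irak3, Ikbke, Tbk1 and Irak2, and the fall of Irak1 kept their direction and their call under these scalings in both comparisons.

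**Figure D3:**
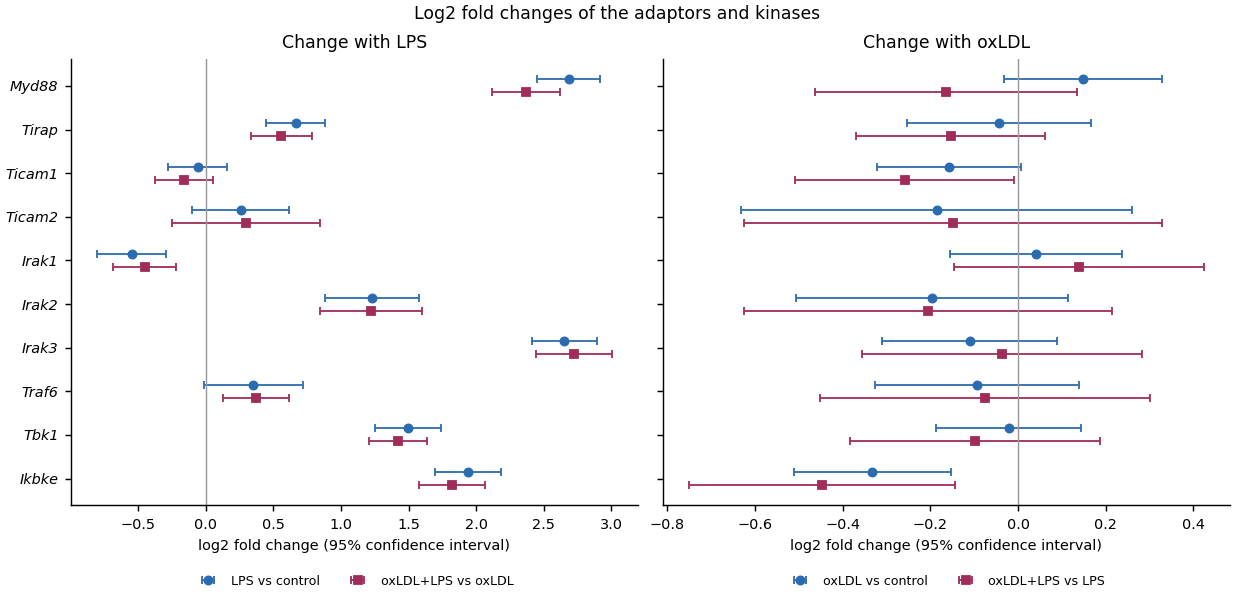
Log2 fold changes of the 10 genes with their 95% confidence intervals (limma, 6 libraries per comparison) for LPS in PMφs without and with oxLDL (left panel) and for oxLDL in PMφs without and with LPS (right panel, a narrower axis). With LPS the values span -0.55 (Irak1) to 2.73 (Irak3), whereas with oxLDL they span -0.45 to 0.15, and only the Ikbke interval lies below 0 in both comparisons. The fits shown do not use the pairing by replicate number.

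Ratios within a library do not depend on how the libraries were scaled to each other, and 7 of them were formed per kb of exon between members with related roles, chosen after their values were seen. The adaptor ratio Myd88/Ticam1 was 0.558, 0.633 and 0.592 in the control libraries and 3.82, 4.29 and 3.87 in the LPS libraries. The MyD88 adaptor thus went from the less to the more abundant transcript of the 2, a difference of 2.75 on the log2 scale (standard error 0.07). In oxLDL-loaded PMφs the ratio was 0.647, 0.787 and 0.777 without LPS and 4.15, 4.64 and 4.01 with it. The ratio of the inhibitory Irak3 to Irak1 went from 0.243, 0.249 and 0.240 to 2.65, 1.81 and 2.39 with LPS. It crossed 1 in every LPS-treated library, and in oxLDL-loaded PMφs it went from 0.245, 0.215 and 0.202 to 2.20, 1.75 and 2.07. The ratio of Irak2 to Irak1 was 0.852, 0.902 and 0.775 in control and 3.21, 2.19 and 3.46 in LPS libraries. Irak3 also rose against Irak2, from a mean ratio of 0.291 to 0.781. The mean Irak3/Myd88 ratio was 0.595 in control and 0.585 in LPS libraries (difference -0.03, standard error 0.12). It was lower in oxLDL libraries, at 0.497, where it was separate from control in all 3 numbers (-0.26, standard error 0.05), and it was 0.649 in oxLDL+LPS libraries, which overlapped with oxLDL (0.35, standard error 0.22). In the kinase pair, Ikbke/Tbk1 was 0.770, 0.818 and 0.768 in control and 0.661, 0.688 and 0.557 in oxLDL libraries. It was 1.11, 1.04 and 1.04 in LPS and 0.787, 0.965 and 0.768 in oxLDL+LPS libraries. The oxLDL library of every replicate number had a lower ratio than its counterpart without oxLDL, and the groups were separate at both LPS states, by -0.31 (standard error 0.10) without LPS and -0.35 (standard error 0.11) with it. Over the 28 ratio comparisons the exact two-sided permutation p could not go below 0.1, which 15 reached, and the smallest Benjamini-Hochberg adjusted value was 0.187.

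**Figure D4:**
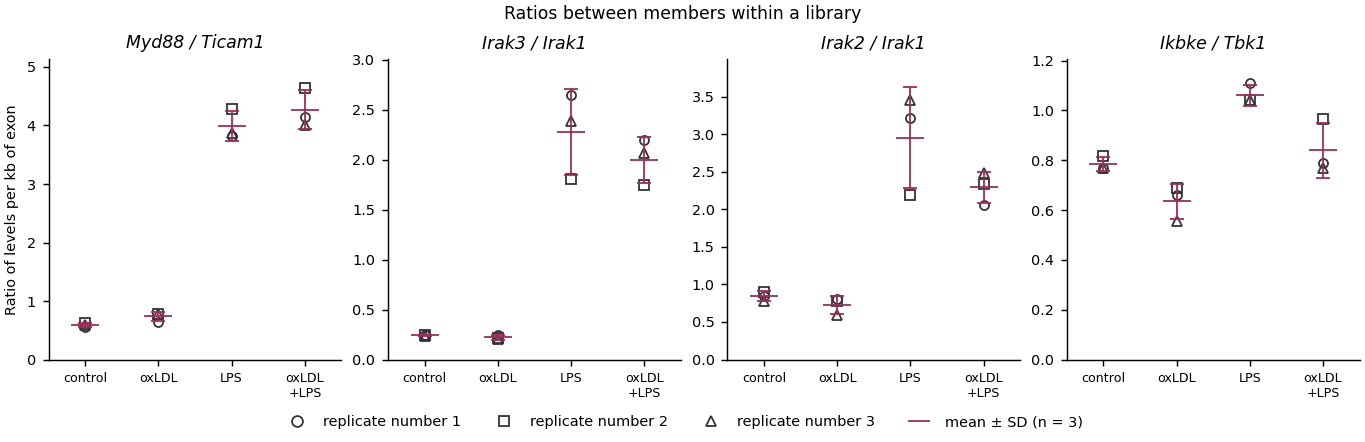
Ratios of levels per kb of exon between members within each library (vertical axes from 0), with symbols for the replicate number and bars for the mean and SD of 3 libraries. Myd88/Ticam1, Irak3/Irak1 and Irak2/Irak1 lie below 1 in all libraries without LPS and above 1 in all libraries with LPS, whereas Ikbke/Tbk1 lies lower with oxLDL at both LPS states.

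The effect of oxLDL alone was asked by comparing oxLDL-loaded with control PMφs, which are also the reference of the LPS comparisons above. Of 12751 genes, 0% were called by limma, with 381 at an unadjusted p under 0.05, and none of the 10 was among the called. With the replicate number as a block, 4.71% of genes were called, 2.92% lower, and Ikbke and Irak2 were called lower. Ikbke had normalized counts of 2278, 2419 and 2092 with oxLDL against 2685, 2872 and 2988 in control, and the groups did not overlap. Its log2 fold change was -0.33 (standard error 0.08, unadjusted p = 0.0030, adjusted p = 1.0, limma), and with the block these were 0.06 and 0.014 for the standard error and adjusted p. It was lower than that of 95.5% of genes tested, and with the block and without replicate number 1, 2 or 3 the adjusted p was 0.052, 0.099 and 1.0e-06. In 1 blocked fit of all 12 libraries it was 0.62. The fits without a number had 2 libraries per group and 1 residual degree of freedom, so their p-values lean on the variance of other genes. Irak2 had a log2 fold change of -0.20 (adjusted p = 1.0, limma, with a standard error of 0.13), and with the block the adjusted p was 0.091, a call lost without number 1 (0.21) or number 2 (0.27) and in the blocked fit of all 12 libraries (1.0). Ticam1 was the other gene whose groups were separate, at -0.16 (95% interval -0.32 to 0.01), so that 2 of the 10 were lower without overlap, against 3.91% of genes tested. Myd88 had a value of 0.15 (95% interval -0.03 to 0.33), higher with oxLDL by 0.14 to 0.16 in all 3 numbers. The intervals of Tbk1 (-0.19 to 0.14), Irak1 (-0.16 to 0.24) and Irak3 (-0.31 to 0.09) leave room only for changes smaller than those with LPS, and those of Ticam2 (-0.63 to 0.26) and Irak2 (-0.51 to 0.11) are wider. The lipid-responsive genes chosen as a check were higher with oxLDL. Cd36, a scavenger receptor, had 36680 ± 3819 (SD, n = 3) and 71524 ± 20248 (SD, n = 3) normalized counts, and Plin2, the lipid droplet protein, had 25172 ± 369 and 34199 ± 1822 (SD, n = 3), both called with the block.

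In LPS-stimulated PMφs, oxLDL+LPS was compared with LPS to ask what lipid loading did to the response. In the fit that ignores the pairing by replicate number, limma called 0% of 12786 genes and none of the 10. At an unadjusted p under 0.05 it had 890 genes, and the intervals below are from that fit. With the block, 13.2% of genes were called, 8.74% lower, and Ikbke and Ticam1 were called lower. Ikbke had 7161, 8742 and 8156 normalized counts with oxLDL+LPS against 11007, 9802 and 12009 with LPS, and the groups were separate. The log2 fold change was -0.45 (adjusted p = 0.70, limma, with a standard error of 0.13), and the adjusted p with the block was 0.037. This call was lost without replicate number 1 (0.34) or number 3 (0.38), although the value stayed at -0.36 and -0.39, and in the blocked fit of all 12 libraries the adjusted p was 0.041. Ticam1 had 911, 1026 and 981 normalized counts against 1088, 1117 and 1291, also separate. Its log2 fold change was -0.26 (adjusted p = 0.71, limma, with a standard error of 0.11), and the adjusted p with the block was 0.086, a call lost without number 1 (0.37) or number 3 (0.44) and in the fit of all 12 libraries (0.12). Without number 2, the blocked fit called 5 of the 10, which were Myd88, Ticam1, Irak2 and Ikbke lower and Irak1 higher, where 23.9% of genes tested were called. The fits without a number had 1 residual degree of freedom here too. Tirap was the third gene with separate groups, at -0.15 (95% interval -0.37 to 0.06), so that 3 of the 10 were lower without overlap, against 6.39% of genes tested. Of the 10, 9 had a negative value, with a median of -0.15 against -0.01 for all genes, but 5 were lower in all 3 numbers. Irak3, at -0.04 (95% interval -0.36 to 0.28), and Tbk1, at -0.10 (95% interval -0.38 to 0.19), were close to 0 relative to their rise with LPS. Irak1 was the gene with a positive value, 0.14 (95% interval -0.15 to 0.42). Hmox1, a stress-responsive heme oxygenase gene, had 11081 ± 4507 (SD, n = 3) normalized counts with LPS and 37484 ± 22371 with oxLDL+LPS.

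Whether the LPS response of a gene differed with oxLDL was tested as the interaction over all 12 libraries. Of 13482 genes, 0% were called by limma with or without the block, with 418 and 967 at an unadjusted p under 0.05, and 0 of the 10 members were called. Myd88 had the largest value of the 10 in size, -0.31 (standard error 0.14, 95% interval -0.63 to 0.00, unadjusted p = 0.052, adjusted p = 1.0, limma), and with the block its unadjusted p was 0.010 and its adjusted p 0.66. The interaction of Ikbke was -0.12 (95% interval -0.43 to 0.20), that of Irak3 0.07 (95% interval -0.27 to 0.42) and that of Tbk1 -0.08 (95% interval -0.38 to 0.22). A change of the LPS response by a factor of 1.5 or more, 0.585 on the log2 scale, lay outside the intervals of 8 of the 10 genes, and inside those of Myd88 and Ticam2.

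The rest of the pathway was read from lists of other genes, grouped by their role. Of all genes tested with LPS in PMφs without oxLDL, 61.7% were called, 31.4% higher and 30.3% lower. Scaled to the same total, the median of all genes was -0.48, and the lists were not counted under that scaling. With LPS in PMφs without oxLDL, 8 of 12 tested receptor genes rose and 2 fell, with a median log2 fold change of 1.72 against -0.001 for all genes. Tlr2, the receptor for bacterial lipoproteins, went from 486 ± 86.0 to 19270 ± 8117 (SD, n = 3) normalized counts and the LPS co-receptor Cd14 from 1448 ± 135 to 19991 ± 3229, and Tlr3 and Tlr1 rose by 4.29 and 2.91 on the log2 scale. Tlr4 itself fell from 1451 ± 71.2 to 1159 ± 237 and Tlr13 from 7850 ± 668 to 3819 ± 421, the 2 receptor genes called lower. The fall of Tlr4 was near the threshold, at -0.34 (adjusted p = 0.080, limma). Of 31 other kinases and ubiquitin ligases, 18 rose and 4 fell, with a median of 0.37. The ligase Peli1 rose by 3.28 and Tank, a scaffold of TBK1 and IKKε, by 2.64, whereas Peli2 fell from 756.7 ± 95.4 to 84.33 ± 4.73 normalized counts and Map2k6, a kinase upstream of p38, from 36.33 ± 2.31 to 2.667 ± 1.15. The other 2 that fell were Irak4, the first kinase of the Myddosome, from 959.7 ± 76.8 to 731.7 ± 73.1, and Tab1. Of 20 tested negative regulators, 15 rose and 3 fell, with a median of 2.47. Usp18 rose by 7.11, Socs1 by 6.23, Nfkbie by 5.27 and Nfkbia by 5.21, and Tollip, Otulin and Inpp5d fell. Of 14 transcription factors, 10 rose, led by Irf7 (6.77), Irf1 (5.11), Nfkb2 (4.74) and Nfkb1 (3.23), while Fos and Jun fell. All 12 outputs usually assigned to the MyD88 arm and all 11 tested outputs of the TRIF and interferon arm rose. Il1b went from 12.67 ± 6.66 to 96551 ± 51804 normalized counts, Cxcl2 from 16.33 ± 4.51 to 31857 ± 15132, Il12b from 1.333 ± 0.577 to 12593 ± 8659 and Il6 from 1.0 ± 1.0 to 8939 ± 6427. Cxcl10 went from 23.67 ± 8.08 to 60148 ± 22620, Ccl5 from 63.33 ± 71.4 to 52867 ± 13467, Mx1 from 33.67 ± 6.11 to 43131 ± 13299 and Ifit2 from 106.7 ± 22.1 to 111952 ± 25166. Ifnb1 did not pass the filter, with values from 0 to 13 in the 12 libraries.

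**Figure D5:**
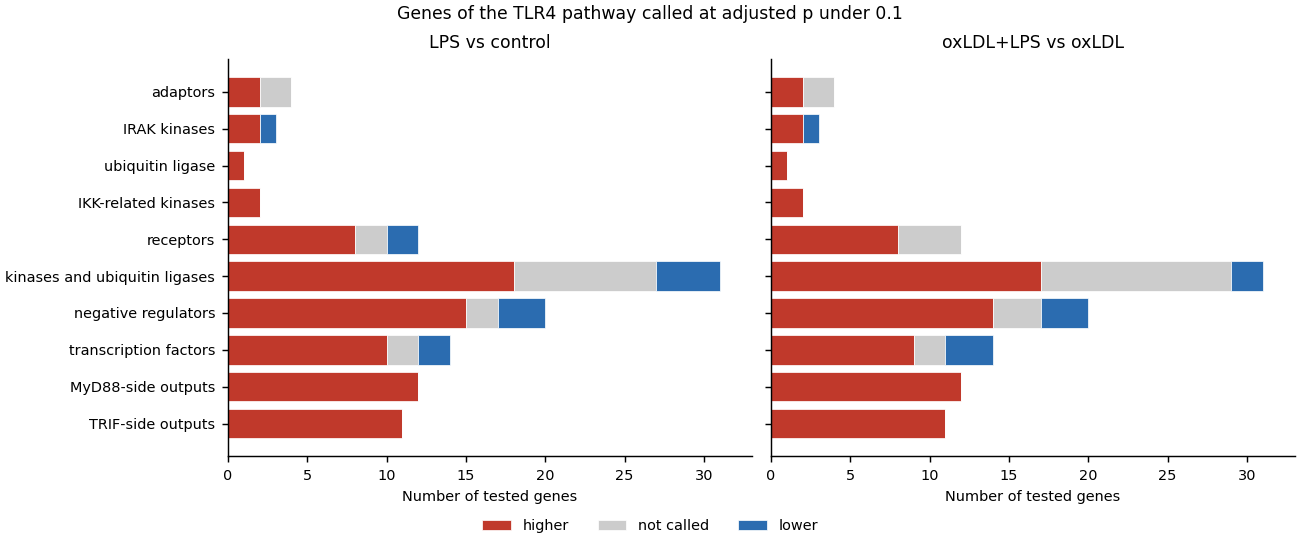
Number of tested genes called higher, not called or called lower at an adjusted p under 0.1 (limma) with LPS, for the 4 roles of the 10 genes and for 6 lists of other pathway genes, without oxLDL (left) and with oxLDL (right). All 12 MyD88-side and 11 TRIF-side outputs were higher in both comparisons, and the kinases and ubiquitin ligases had 9 and 12 of 31 genes not called. Of all genes tested, 61.7% and 54.5% were called.

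In oxLDL-loaded PMφs the counts with LPS were 8 higher and 0 lower of 12 receptor genes, 17 higher and 2 lower of 31 kinases and ligases, 14 higher and 3 lower of 20 negative regulators, 9 higher and 3 lower of 14 transcription factors, and 12 of 12 and 11 of 11 outputs higher. Of all genes tested, 28.2% were called higher and 26.3% lower. The falls of Tlr4 (-0.14, adjusted p = 0.28, limma), Tlr13 (-0.55, 0.11), Irak4 (-0.17, 0.14) and Tab1 (-0.20, 0.20) were not called here. With the block, Tlr13 was called (adjusted p = 0.052, limma). The genes with the largest changes were again Tlr2 (5.35), Tlr3 (3.74), Cd14 (3.67) and Tlr1 (2.90) among receptors. They were Map2k6 (from 35.33 ± 8.08 to 3.333 ± 1.53 normalized counts, SD, n = 3), Peli1 (2.98), Peli2 (-2.81) and Tank (2.48) among kinases and ligases, Usp18 (6.96), Nfkbie (4.85), Socs1 (4.80) and Nfkbia (4.64) among negative regulators, and Irf7 (6.42), Irf1 (4.96), Nfkb2 (4.47) and Nfkb1 (2.94) among factors. In oxLDL+LPS against LPS, 0 genes of any list were called without the block. With the block, 10 of 12 MyD88-side outputs were lower, with a list median of -1.53 against -0.01 for all genes, but 3 of 11 TRIF-side outputs, with a median of -0.26, and 8.74% of all genes were lower by that rule. The blocked fit called 71, 2945 and 0 of all genes when number 1, 2 or 3 was left out. Because the lists were written by hand with earlier results of these data known, the contrast between them is not an independent result. Il1b, the output with the smallest p, had 24694 ± 18592 normalized counts with oxLDL+LPS (-2.16, standard error 0.67, adjusted p = 0.70 and 0.0079 with the block, limma), and Cxcl10 had 30821 ± 11805 (-0.98, adjusted p = 0.70 and 0.043 with the block, limma). Negative regulators had 6 of 20 lower with the block, among them Tnfaip3 (-0.77, adjusted p 0.011 with the block, limma). Transcription factors had 4 of 14 lower, among them Irf8 (-0.83, adjusted p 0.039 with the block, limma). Kinases and ligases had 5 of 30 lower and 2 higher, with Azi2, an adaptor of TBK1, at -0.25 (adjusted p 0.085 with the block, limma), and receptors had 3 of 12 lower and Tlr13 higher (0.63, adjusted p 0.022 with the block, limma). In oxLDL against control, 0 genes of these lists were called without the block. The genes with the smallest p per list were Tlr4 (-0.18), Traf3 (-0.20), Tnip3 (-0.51), Fos (0.66), Ccl4 (-0.20) and Rsad2 (-0.28), and all but Ccl4 were called with the block. The interaction had 0 called in these lists, and its smallest p values belonged to Tnfaip3 (-0.94), Irf8 (-0.74), Ccl4 (-1.26), Cxcl10 (-1.25), Peli2 (0.33) and Tlr3 (-0.55).

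Genes with the most similar profile were sought among 13482 genes by Pearson's r of log2 values over the 12 libraries, which fall into 2 clusters by LPS, so that r mostly reflects that split. Myd88 was most like Gbp7, Tap2 and Sass6 (r = 0.999 each), and Irak3 was most like Sppl2a (0.999), Mx1 and Rnf213 (0.998 each). Gbp7 is an interferon-inducible GTPase, and Mx1 and Rnf213 are interferon-stimulated genes. Tbk1 was most like Cers6, A230046K03Rik and Tmem243 (0.998 each). Ikbke was most like Rnf145 (0.995), Hif1a and 5730508B09Rik (0.994 each), and Hif1a, which encodes the hypoxia-inducible factor, had group means of 2037, 1902, 8688 and 6077 normalized counts in control, oxLDL, LPS and oxLDL+LPS PMφs. Irak2 was most like Itga5 (0.985), Pik3r6 and Rasgef1b (0.982 each), and Tirap like Zcrb1 and Cldn25 (0.991) and Slamf7 (0.990). Irak1 was most like Vamp1 (0.977), Tmem150b (0.976) and Rxra (0.975), which also had lower means with LPS, for example 3078 and 1311 normalized counts of the retinoid receptor gene Rxra in control and LPS PMφs. Traf6 had weaker matches in Nsun3 (0.957), Pcnx (0.954) and Dhx8 (0.950). Among the 10, the correlations of Myd88, Irak3, Tbk1 and Ikbke with each other were 0.98 to 0.99, that of Myd88 with Irak1 was -0.89 and that with Ticam1 -0.36.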

How the data were processed

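Poly(A) RNA of 12 PMφ cultures was sequenced with a directional kit. According to the submitters' processing notes, reads were trimmed with Trimmomatic 0.32, aligned to GRCm38 (mm10) with STAR 2.5.1b and counted with featureCounts of the Subread package. The study's methods name GENCODE vM4 as the annotation, and the strand setting of the counting is not given in the sources used here. The authors then deposited a normalized signal, that is counts per gene that had been divided by a library-specific factor and then rounded, for 43278 gene symbols, of which 18273 were 0 throughout and 25 were dates left by a spreadsheet (at most 0.165% of a library).

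Groups were taken from the labels. Log2(value + 1) was fitted with limma 3.58.1 in R 4.3.3 (empirical Bayes with a trend) to the 6 libraries of a comparison, or to all 12 for the interaction, for genes with at least 10 in at least 3 libraries. p-values were adjusted by Benjamini-Hochberg over all genes tested and called under 0.1. No count model was used, because the values are not counts. Figures and counts were made with Python 3.11.15, pandas 2.3.3 and scipy 1.17.1, and the fits were tested on simulated data. Levels per kb used exon lengths of GENCODE vM21 on GRCm38, a later release than the one counted, so that lengths and shared exon bases may differ from those in the counting. Promoter windows came from RefSeq on GRCm38.p6, and protein sequences were not used here.

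The replicate numbers pair the libraries. The methods say that pooled cells were divided among the groups, and same-numbered libraries deviated together from their group means (correlations 0.305 to 0.733 over 11186 genes, each highest with its own number), although number 1 held different sex-linked transcripts with and without LPS. Named were the 10 genes, per list up to 4 called genes with the largest change or otherwise the gene with the smallest p, the 3 genes most like each called member, and check genes for LPS and oxLDL. Other genes called lower in a list were named after their values were seen. The members and lists were chosen with earlier results of these data known. Alternatives were other filters, pseudocounts, scalings, variance models and thresholds, all 12 libraries in 1 fit, the replicate number as a block, and each library or number left out.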

Additional observations from a re-analysis of the deposited data

Results flagged for a closer look

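For Myd88, the differences with oxLDL had opposite signs in the 2 LPS states, although neither was called (0.15, adjusted p = 1.0 and 0.19 with the block without LPS, and -0.16, adjusted p = 0.81 and 0.27 with the block with LPS, limma). Without LPS the oxLDL library was higher in 3 of 3 replicate numbers, by 0.14, 0.14 and 0.16 on the log2 scale, and with LPS it was lower in 3 of 3, by 0.14, 0.01 and 0.34 (values of -0.14, -0.01 and -0.34). The difference between the effects was -0.313 (standard error 0.14, limma, 12 libraries), with an unadjusted p of 0.052 and an adjusted p of 1.0, and an adjusted p of 0.66 with the replicate block, so it did not pass the correction. Leaving out single libraries gave -0.41 to -0.25.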

How the results depend on the processing

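The alternatives gave 1258 values, of which 1156 kept their direction and side of the threshold. In both LPS comparisons Myd88, Irak1, Irak2, Irak3, Tbk1 and Ikbke kept both under every alternative run, and the number of the 10 genes called ranged from 7 to 9. With the replicate block, 601 genes and 2 members were called for oxLDL against control, and 1682 genes and 2 members for oxLDL+LPS against LPS. With the block and all 12 libraries these were 5 genes, and 1015 genes and 1 member. Leaving out 1 library or number gave 0 to 1285 genes and 0 to 2 members in the first (214, 139 and 1285 without numbers 1, 2 and 3 with the block), 0 to 2945 genes and 0 to 5 members in the second (71, 2945 and 0 genes without numbers 1, 2 and 3 with the block, and 91 without oxLDL+LPS replicate 2) and 0 to 9 genes for the interaction (6 without oxLDL+LPS replicate 2, 9 without number 2 with the block). The cause was not tested, and the blocked fits of 2 groups without a number had 1 residual degree of freedom. The blocked fits changed no other count by over 1.5 times.

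Directions turned mainly for values near 0. With the same total, Ticam2 was -0.226 and Traf6 -0.131 for LPS against control, and -0.096 and -0.020 in oxLDL-loaded PMφs, while Irak3 was 0.055 and Traf6 0.015 for oxLDL+LPS against LPS, and Irak2 0.084 and Tbk1 0.016 for the interaction. With quantile normalization, Tbk1 was 0.008 for oxLDL against control, Irak3 0.067 and Tbk1 0.013 for oxLDL+LPS against LPS, and Irak2 0.110, Tbk1 0.003 and Ikbke 0.052 for the interaction. Ticam1 was called lower with LPS under both scalings (-0.546 and -0.343, and -0.553 and -0.381 in oxLDL-loaded PMφs), and Traf6 lost its call with quantile normalization (0.102 and 0.159). Leaving out 1 library or number gave, for oxLDL against control, -0.057 to 0.029 for Tbk1, -0.112 to 0.004 for Tirap and -0.020 to 0.114 for Irak1. For oxLDL+LPS against LPS it gave -0.241 to 0.014 for Traf6, -0.123 to 0.077 for Irak3 and -0.325 to 0.044 for Ticam2. For the interaction it gave -0.138 to 0.138 for Irak2, -0.140 to 0.230 for Ticam2, -0.147 to 0.107 for Traf6, 0.000 to 0.226 for Irak1 (0.000 to 0.178 without the block), -0.013 to 0.188 for Irak3, -0.152 to 0.010 for Tbk1 and -0.214 to 0.019 for Ikbke. With the block and without a number, Traf6 was 0.007 for oxLDL+LPS against LPS without number 2, and for the interaction Irak2 was 0.123 and Traf6 -0.060 without number 1, and Ticam2 -0.003 without number 2 and -0.058 without number 3. With 3 libraries a group, the intervals of Ticam2 and Irak2 span oxLDL effects of either sign.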
